A study of Homo sapiens with 6 samples.

Results

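Transcripts of the E2F transcription factors and of the pocket proteins that bind them were followed in PC3, an established line of human prostate cancer cells, after siRNA against VEGF-C or against its co-receptor neuropilin-2. The members were 10 genes, E2F1, E2F2, E2F3, E2F4, E2F5, E2F7, E2F8, RB1, RBL1 and RBL2, out of 19775 genes named on the arrays. They were taken with every probe set whose annotation names just 1 of these genes, which gave 22 of the 54675 probe sets, and 0 member probe sets named several genes. Total RNA was collected 72 h after transfection with an NRP-2 siRNA pool from Santa Cruz Biotechnology, a VEGF-C siRNA pool from Dharmacon or a scrambled siRNA. Each of the 3 groups had 2 Affymetrix arrays, numbered 1 and 2 in the sample titles. All groups were the same cell line in medium with 10% fetal bovine serum. Target and supplier changed together between the NRP-2 and VEGF-C pools. The labels treat each array as its own sample but name no separate cultures, so the spread behind every p-value below may be technical.

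E2F factors bind short GC-rich sites in the promoters of genes needed for DNA replication and cell division. RB1 and its relatives RBL1 and RBL2, the pocket proteins, bind E2F factors in resting and early G1 cells and hold these promoters silent until cyclin-dependent kinases phosphorylate them. E2F1, E2F2 and E2F3 are the classical activators, E2F4 and E2F5 act mainly as repressors with RBL1 and RBL2, and E2F7 and E2F8 are atypical repressors that bind DNA without a DP partner and do not bind pocket proteins. Several of the genes, among them E2F1, E2F7, E2F8 and RBL1, are themselves known E2F targets, which makes the family a set of feedback loops.

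Promoter letters are shown for 3 members known as E2F targets, E2F1, E2F7 and RBL1, and for RBL2, whose array values below run opposite to those of RBL1. The windows are the 250 bases before the start of each gene in RefSeq on GRCh38.p14, in the direction of the gene, with capitals marking matches to the E2F motif, those on the opposite strand as their reverse complement. The motif was searched on both strands as TTGGCGC or else TTCGCGC or else TTCCCGC or else TTGCCGC.
E2F1: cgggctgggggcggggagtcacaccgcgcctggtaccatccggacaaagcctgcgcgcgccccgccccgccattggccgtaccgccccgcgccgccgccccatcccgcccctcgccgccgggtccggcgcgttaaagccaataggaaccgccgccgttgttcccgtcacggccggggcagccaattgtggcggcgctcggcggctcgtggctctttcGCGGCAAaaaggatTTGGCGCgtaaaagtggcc
E2F7: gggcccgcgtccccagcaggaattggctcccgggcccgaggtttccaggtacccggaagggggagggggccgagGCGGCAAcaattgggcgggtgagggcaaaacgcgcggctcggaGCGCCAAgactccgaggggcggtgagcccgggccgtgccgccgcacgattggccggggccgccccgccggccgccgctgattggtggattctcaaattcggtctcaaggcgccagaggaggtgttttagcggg
RBL1: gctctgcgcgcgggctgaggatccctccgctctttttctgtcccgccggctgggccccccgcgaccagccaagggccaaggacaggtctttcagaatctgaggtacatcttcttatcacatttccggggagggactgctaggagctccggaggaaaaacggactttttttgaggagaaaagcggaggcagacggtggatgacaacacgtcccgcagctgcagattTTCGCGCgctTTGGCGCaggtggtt
RBL2: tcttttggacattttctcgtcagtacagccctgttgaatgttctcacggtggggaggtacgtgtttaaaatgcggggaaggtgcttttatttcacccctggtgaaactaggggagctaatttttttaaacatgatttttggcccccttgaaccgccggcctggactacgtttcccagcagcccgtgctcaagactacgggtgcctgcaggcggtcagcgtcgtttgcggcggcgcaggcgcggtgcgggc
The E2F1 window lies at chr20:33686386-33686635 on the minus strand, that of E2F7 at chr12:77065570-77065819 on the minus strand, that of RBL1 at chr20:37095998-37096247 on the minus strand and that of RBL2 at chr16:53434221-53434470 on the plus strand. In E2F1 the matches ran from -33 to -27 and from -19 to -13, counted in bases from the start, and in RBL1 from -25 to -19 and from -15 to -9. Those of E2F7 lay farther out, from -176 to -170 and from -133 to -127. E2F5 was left out of this search, E2F8 had no promoter entry and that of RB1 lies at an inner start. Of the 7 members with a window used at the outer start of the gene (E2F1, E2F2, E2F3, E2F4, E2F7, RBL1 and RBL2), 5 held a match. The windows of E2F4 and RBL2 did not hold these letters. Among 22198 windows of protein-coding genes, 13.6% held a match. Another motif of cell cycle promoters, TTTGAA, was found only in E2F3 among these 7 windows, apart from its E2F matches, against 11.0% of protein-coding windows. The matches describe the letters and were not tested as binding sites or against the array values.

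The siRNA targets checked the labels. VEGFC had log2 values of 8.46 and 7.27 with VEGF-C siRNA, against 11.81 and 11.80 with scrambled siRNA, and NRP2 had 3.41 and 2.81 with NRP-2 siRNA, against 4.77 and 4.92 with scrambled siRNA. Log2 medians of the arrays differed by at most 0.07, and precision is limited by how few arrays there are. The 4 epithelial markers KRT8, KRT18, KRT19 and EPCAM stood between 11.7 and 14.8 on all arrays. Of the other lists, 2 of 5 fibroblast, 1 of 5 leukocyte, 2 of 4 endothelial and 2 of 4 luminal prostate markers passed the low-value filter. Across the arrays COL1A1 stood between 9.56 and 10.77, COL3A1 between 7.04 and 8.75 and LYZ between 4.70 and 7.41. PECAM1 stood between 9.17 and 10.93, KDR between 5.02 and 5.13, KLK3 between 6.26 and 6.87 and TMPRSS2 between 7.02 and 9.25. The list genes PTPRC, CD3E, CD14, COL1A2, DCN, LUM, CDH5 and VWF stayed at or below 3.30. With 2 arrays a group, an exact two-sided permutation test of a single gene cannot give a p below 0.333, and 3 matched pairs of arrays cannot give one below 0.25. Tests therefore come from limma fits over all 11131 genes whose brightest probe set had a mean of at least log2 4, adjusted by Benjamini-Hochberg over all of them, and a difference is a log2 difference of group means with its standard error (SE).

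Of the 10 members, 8 passed this filter. E2F1 and E2F2 did not, and both are activators that cycling cells are known to express. Of the 22 probe sets, 11 passed, and the other 11 had means between 1.62 and 3.73, where values are compressed and a change is understated. Among these 11, 8 ranged over less than 0.25 log2 across the 6 arrays. Just inside the filter stood a second probe set of RBL1 with a mean of 4.20, and just outside it the brightest probe sets of E2F2 (3.73) and E2F1 (3.66). E2F4 passed with a mean of 4.40 and a range of 0.05 over all arrays, so its level here is close to the floor too.

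**Figure D1:**
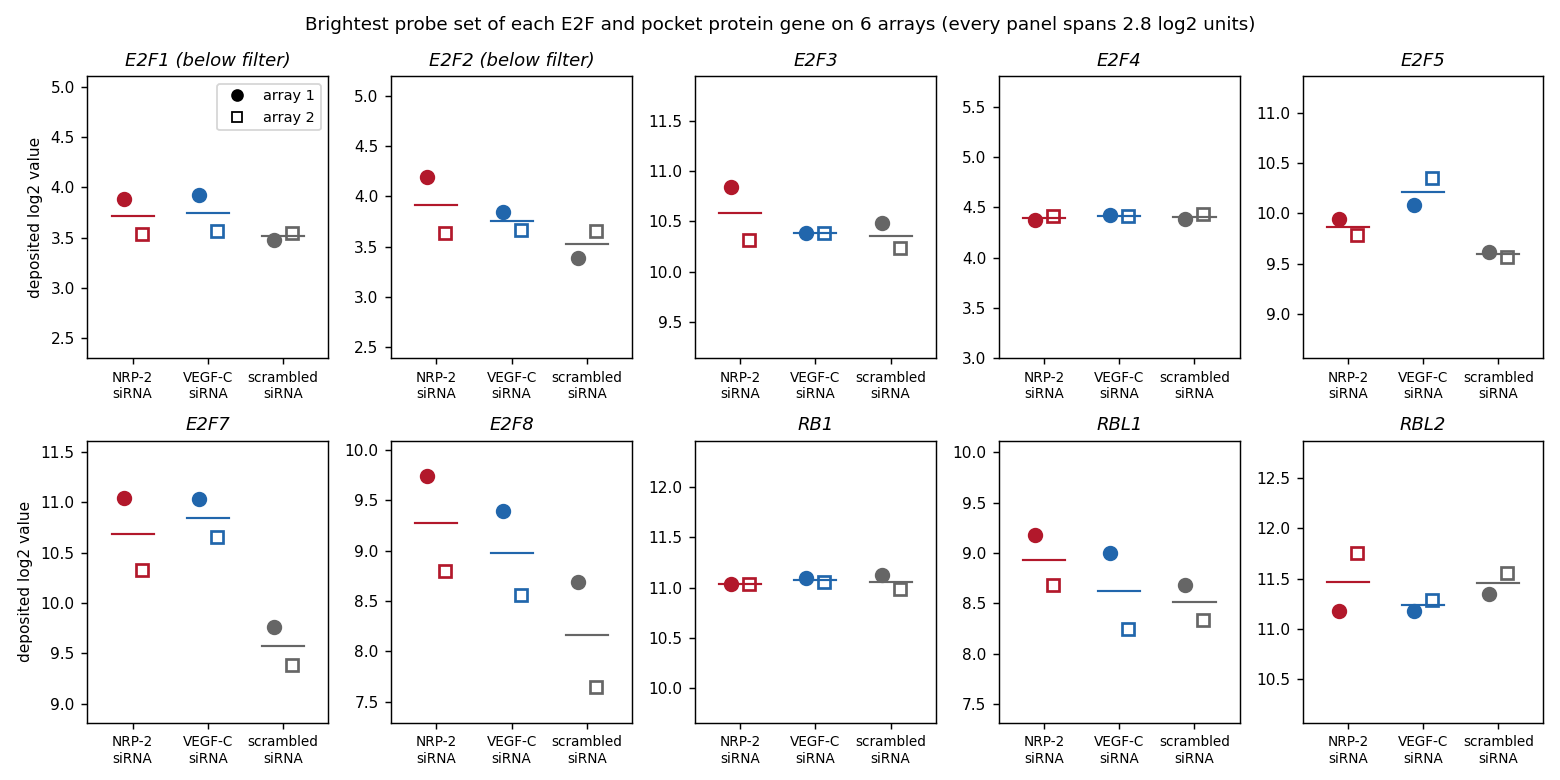
Deposited log2 values of the brightest probe set of each member on the 6 arrays, with NRP-2 siRNA, VEGF-C siRNA and scrambled siRNA from left to right, filled circles for array 1, open squares for array 2 and a line at the mean of the 2 arrays. Every panel spans the same number of log2 units: E2F7 and E2F8 move the most, RB1 and E2F4 stay flat, and the siRNA groups of E2F7 lie above both scrambled arrays.

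E2F7, an atypical repressor of E2F target genes, showed the largest difference of the 8 measured members with VEGF-C siRNA and, about level with E2F8, with NRP-2 siRNA. It stood at log2 11.04 and 10.33 under NRP-2 siRNA, 11.03 and 10.65 under VEGF-C siRNA and 9.76 and 9.38 under scrambled siRNA. All 4 arrays of the targeting siRNAs lay above both scrambled arrays. The mean was 10.84 ± 0.27 (SD, n = 2) with VEGF-C siRNA, against 9.57 ± 0.27 with scrambled siRNA, a difference of 1.27 (SE 0.29), or 2.41-fold. With NRP-2 siRNA the mean was 10.68 ± 0.50, a difference of 1.11 (SE 0.29) from scrambled siRNA, or 2.16-fold. Neither passed over all genes in limma (adjusted p = 0.233 for VEGF-C siRNA and 0.253 for NRP-2 siRNA), with unadjusted limma p-values of 0.00589 and 0.0104. Both comparisons use the same scrambled arrays. Between NRP-2 and VEGF-C siRNA, E2F7 differed by -0.16 (SE 0.29), with a 95% interval from -0.89 to 0.57, so differences of either sign remain possible there. The other E2F7 probe set had a mean of 2.17 and a range of 0.08.

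E2F8, the close relative of E2F7, gave 9.74 and 8.80 under NRP-2 siRNA, 9.39 and 8.56 under VEGF-C siRNA and 8.69 and 7.64 under scrambled siRNA. Here the NRP-2 arrays lay above both scrambled arrays, while the lower VEGF-C array fell below scrambled array 1. The gap between arrays 1 and 2 was about as wide as the gap between groups. The difference was 1.11 (SE 0.51) with NRP-2 siRNA and 0.81 (SE 0.51) with VEGF-C siRNA, and limma's adjusted p was 0.412 and 0.488. Leaving out 1 array at a time moved these values over wide ranges, from 0.58 to 1.63 for NRP-2 siRNA and from 0.29 to 1.33 for VEGF-C siRNA. The lowest values came without scrambled array 2 and the highest without scrambled array 1. Within array 1 alone, E2F8 was higher by 1.05 with NRP-2 siRNA and by 0.70 with VEGF-C siRNA than with scrambled siRNA. Within array 2 alone, the differences were 1.16 and 0.92 for these siRNAs. E2F7 differed by 1.27 with VEGF-C siRNA within each array number, and by 1.28 and 0.95 with NRP-2 siRNA within arrays 1 and 2. With array number added to the limma fit, E2F8 kept these differences of group means with an SE of 0.14. Its unadjusted limma p was 0.000402 with NRP-2 siRNA (rank 21 of 11131 genes) and 0.00176 with VEGF-C siRNA (rank 148). Limma's adjusted p was 0.146 and 0.131. E2F7 had an SE of 0.15 in that fit, with an adjusted p of 0.146 for NRP-2 siRNA and 0.124 for VEGF-C siRNA.

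Among the activators, E2F3 was bright and nearly level. Its values were 10.84 and 10.32 under NRP-2 siRNA, 10.39 and 10.39 under VEGF-C siRNA and 10.48 and 10.24 under scrambled siRNA. NRP-2 array 1 stood above the other 5 arrays, and the groups overlapped. The difference from scrambled siRNA was 0.22 (SE 0.21) with NRP-2 siRNA and 0.03 (SE 0.21) with VEGF-C siRNA, with 95% intervals from -0.30 to 0.73 and from -0.49 to 0.55. A dimmer E2F3 probe set with a mean of 6.32 ranged over 0.22. The brightest E2F1 probe set gave 3.88 and 3.54 under NRP-2 siRNA, 3.92 and 3.57 under VEGF-C siRNA and 3.48 and 3.55 under scrambled siRNA, in all cases near the floor. The brightest of E2F2 gave 4.19 and 3.64 under NRP-2 siRNA, 3.84 and 3.67 under VEGF-C siRNA and 3.39 and 3.66 under scrambled siRNA. In both genes array 1 of the targeting siRNAs was highest, but these values are below the filter. In a limma fit with no filter, E2F1 differed from scrambled siRNA by 0.19 (SE 0.17) for NRP-2 siRNA and by 0.23 (SE 0.17) for VEGF-C siRNA, and E2F2 by 0.39 (SE 0.22) for NRP-2 siRNA and by 0.23 (SE 0.22) for VEGF-C siRNA. Limma's adjusted p in that fit lay between 0.698 and 0.870 for these 4 differences.

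E2F5, a repressor that works with RBL1 and RBL2, differed with VEGF-C siRNA before adjustment. Between arrays 1 and 2 it differed by 0.15 with NRP-2, -0.27 with VEGF-C and 0.05 with scrambled siRNA, a mean of -0.02. It stood at 9.94 and 9.79 under NRP-2 siRNA, 10.08 and 10.35 under VEGF-C siRNA and 9.62 and 9.57 under scrambled siRNA. The 3 groups did not overlap, with VEGF-C siRNA highest and scrambled siRNA lowest. The difference was 0.62 (SE 0.15), or 1.54-fold, with VEGF-C siRNA, and 0.27 (SE 0.15) with NRP-2 siRNA. Limma's adjusted p was 0.234 and 0.464, and the unadjusted limma p for VEGF-C siRNA was 0.00654. NRP-2 siRNA differed from VEGF-C siRNA by -0.35 (SE 0.15, limma's adjusted p = 0.29). The other E2F5 probe set had a mean of 2.63. E2F4, which takes the same role in resting cells, was flat, with differences between -0.03 and 0.01 over the 3 siRNA comparisons.

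The 3 pocket protein genes behaved unlike each other. RB1, the retinoblastoma protein that binds the activators, was the steadiest of them, at 11.04 and 11.04 under NRP-2 siRNA, 11.10 and 11.06 under VEGF-C siRNA and 11.13 and 10.99 under scrambled siRNA. Its differences from scrambled siRNA were -0.02 (SE 0.12) with NRP-2 siRNA and 0.02 (SE 0.12) with VEGF-C siRNA, with 95% intervals from -0.32 to 0.28 and from -0.28 to 0.31. RBL1, which pairs with E2F4 and E2F5 and is itself an E2F target, stood at 9.18 and 8.68 under NRP-2 siRNA, 9.00 and 8.25 under VEGF-C siRNA and 8.68 and 8.34 under scrambled siRNA. Its groups overlapped, and the difference was 0.42 (SE 0.31) with NRP-2 siRNA and 0.11 (SE 0.31) with VEGF-C siRNA (limma's adjusted p = 0.568 and 0.893). A dimmer RBL1 probe set gave 5.20 and 3.89 under NRP-2 siRNA, 4.40 and 4.04 under VEGF-C siRNA and 3.82 and 3.81 under scrambled siRNA. Its mean of 4.20 passed the filter only through NRP-2 array 1, so its high value there adds no separate support. RBL2, the pocket protein that accumulates in resting cells, ran the other way, at 11.18 and 11.76 under NRP-2 siRNA, 11.18 and 11.29 under VEGF-C siRNA and 11.35 and 11.56 under scrambled siRNA. It differed from scrambled siRNA by 0.02 (SE 0.22) with NRP-2 siRNA and by -0.22 (SE 0.22) with VEGF-C siRNA. Its other measured probe set differed by -0.19 (NRP-2 siRNA) and by -0.31 (VEGF-C siRNA).

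Limma called 0 of 11131 genes at an adjusted p under 0.05 in each of the 3 siRNA comparisons (0% of genes), and 0 of the 8 measured members. At an unadjusted p under 0.05, 2 of 8 members, E2F5 and E2F7, were higher with VEGF-C siRNA, against 6.95% of all genes higher, 7.80% lower and 14.8% in either direction. With NRP-2 siRNA 1 of 8, E2F7, was higher, against 6.43% of all genes higher, 6.85% lower and 13.3% in either direction. Between NRP-2 and VEGF-C siRNA 0 of 8 passed this looser rule, against 9.54% of all genes higher, 8.66% lower and 18.2% in either direction. With array number added to the fit, 3 of 8 were higher with VEGF-C siRNA (E2F5, E2F7 and E2F8), beside 989 of 11131 genes. In that fit 3 of 8 were higher with NRP-2 siRNA (E2F7, E2F8 and RBL1), beside 1053 of 11131 genes. Groups without overlap were common on these arrays, so they carry little weight. They were found for 3 of 8 members with VEGF-C siRNA (E2F5 and E2F7 higher, RBL2 lower), against 53.4% of all genes (26.8% higher, 26.6% lower). With NRP-2 siRNA they were found for 3 of 8 (E2F5, E2F7 and E2F8 higher), against 49.7% (25.3% higher, 24.4% lower). Between NRP-2 and VEGF-C siRNA they were found for 3 of 8 (E2F4, E2F5 and RB1 lower with NRP-2 siRNA), against 46.5% (24.1% higher, 22.4% lower). The median difference over the 8 members was 0.07 for VEGF-C siRNA and 0.24 for NRP-2 siRNA, beside -0.004 and 0.01 over all genes. These counts describe the members that passed the filter. Among the listed cell type markers, COL1A1 differed at an unadjusted limma p under 0.05 in both comparisons with scrambled siRNA. The differences were -0.84 (SE 0.24) for NRP-2 siRNA and -0.70 (SE 0.24) for VEGF-C siRNA. Luminal TMPRSS2 differed by -1.57 (SE 0.40) with NRP-2 siRNA and KLK3 by 0.48 (SE 0.12) with VEGF-C siRNA. All arrays were of the same cell line, and how these marker differences relate to those of the members was not tested.

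**Figure D2:**
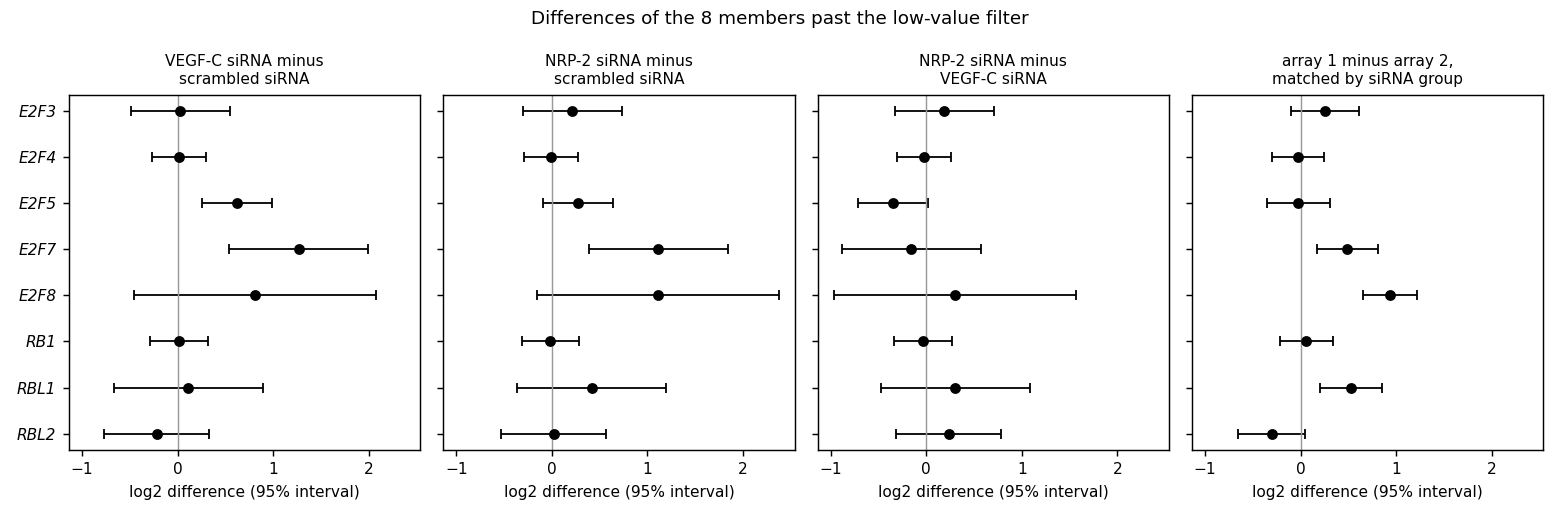
Log2 differences of the 8 measured members with limma's 95% intervals for the 4 comparisons, 1 panel each, with E2F genes above pocket protein genes. The siRNA panels come from a fit without array number, and the array panel from a fit with siRNA group. For E2F8 and RBL1 the intervals are wide in the siRNA panels and clear of 0 in the array panel. With array number added to the siRNA fit, E2F8 had an SE of 0.14 and RBL1 of 0.16. E2F5 lies clear of 0 with VEGF-C siRNA. E2F7 does so with VEGF-C siRNA, with NRP-2 siRNA and by array number.

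Array number separated the family by another line. When array 1 was compared with array 2 within siRNA groups, E2F8 was higher on array 1 in 3 of 3 groups, by 0.94 with NRP-2 siRNA, 0.82 with VEGF-C siRNA and 1.05 with scrambled siRNA. The mean difference was 0.94 ± 0.11 (SD, n = 3 pairs), or 1.91-fold. Its unadjusted limma p of 0.00034 ranked 25 among 11131 genes. Limma's adjusted p was 0.123, the lowest reached in this comparison. RBL1 was higher on array 1 by 0.50 under NRP-2, 0.75 under VEGF-C and 0.34 under scrambled siRNA, a mean of 0.53 (SE 0.13, limma's adjusted p = 0.278). E2F7 was higher by 0.71 under NRP-2, 0.38 under VEGF-C and 0.38 under scrambled siRNA, a mean of 0.49 (SE 0.13, limma's adjusted p = 0.302). RBL2 was lower on array 1 in 3 of 3 groups, with differences of -0.58 under NRP-2, -0.11 under VEGF-C and -0.22 under scrambled siRNA and a mean of -0.30 (SE 0.14, limma's adjusted p = 0.549). The dimmer RBL2 probe set did not show this in every group, at 4.44 on array 1 against 4.46 on array 2 under NRP-2 siRNA, 4.42 against 4.23 under VEGF-C siRNA and 4.45 against 4.82 under scrambled siRNA, a mean of -0.06 (SE 0.15).

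E2F3 differed by 0.26 (SE 0.14) between arrays 1 and 2, RB1 by 0.06 (SE 0.11), E2F4 by -0.03 (SE 0.11) and E2F5 by -0.02 (SE 0.13). Limma called 0 genes (0%) at an adjusted p under 0.05 here too. At an unadjusted p under 0.05, 3 of 8 members, E2F7, E2F8 and RBL1, were higher on array 1, against 5.52% of all genes higher, 4.67% lower and 10.2% in either direction. The sign was the same in all 3 matched pairs for 6 of 8 members, 5 higher on array 1 and RBL2 lower, against 32.1% of all genes (15.7% higher, 16.4% lower). Without the VEGF-C pair limma called 374 genes and, among the members, E2F8 (0.99, SE 0.14, adjusted p = 0.0206). With the other pairs left out in turn it called 0 genes.

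Some of the measured cell type markers also moved with array number. The mean of the 2 measured fibroblast markers, COL1A1 and COL3A1, was 8.75 on array 1 against 9.50 on array 2 under NRP-2 siRNA, 8.51 against 9.20 under VEGF-C siRNA and 9.23 against 9.51 under scrambled siRNA. The leukocyte marker LYZ stood at 4.83 on array 1 against 7.41 on array 2 under NRP-2 siRNA, 4.70 against 5.96 under VEGF-C siRNA and 5.18 against 6.08 under scrambled siRNA. The 2 measured endothelial markers, PECAM1 and KDR, averaged 7.19 on array 1 against 8.01 on array 2 under NRP-2 siRNA, 7.09 against 7.23 under VEGF-C siRNA and 7.24 against 7.98 under scrambled siRNA. KDR stayed between 5.02 and 5.13 on all arrays, so the shift of this mean lay in PECAM1. The other listed markers of these types did not pass the filter. Their part in the array difference was not tested, and the labels do not say what the array number stands for.

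**Figure D3:**
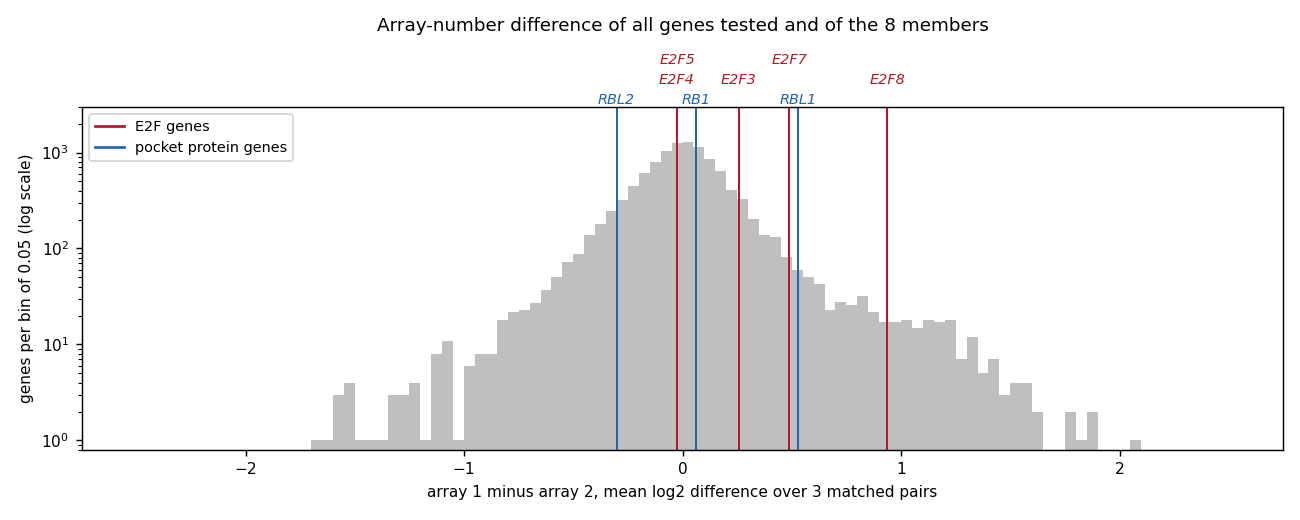
Histogram of the mean difference between array 1 and array 2 over the 3 matched pairs for all 11131 genes, with a logarithmic count axis and a line for each of the 8 members, red for E2F genes and blue for pocket protein genes. E2F8 at 0.94 lies far to the right, RBL1 and E2F7 lie near 0.5, and RBL2 at -0.30 lies left of the centre.

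To place these values, known E2F target genes of S phase were summarised on each array. The mean log2 value of the 27 measured targets was 10.60 and 9.28 under NRP-2 siRNA, 9.98 and 9.11 under VEGF-C siRNA and 9.20 and 8.79 under scrambled siRNA, for arrays 1 and 2. The 19 measured G2 and mitosis genes gave 11.01 and 9.95 under NRP-2 siRNA, 11.18 and 10.43 under VEGF-C siRNA and 10.28 and 8.61 under scrambled siRNA. Array 1 was therefore the array with more of these transcripts in every group, and scrambled array 2 had the least. Bulk RNA does not separate a larger share of dividing cells from more transcript per cell.

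E2F7 and E2F8 were then read against this mean. NRP-2 array 2, VEGF-C array 2 and scrambled array 1 had S phase means within 0.17 of each other. On these 3 arrays E2F8 stood at 8.80, 8.56 and 8.69, RB1 at 11.04, 11.06 and 11.13 and E2F7 at 10.33, 10.65 and 9.76. E2F7 was higher by 0.57 on the NRP-2 array and by 0.89 on the VEGF-C array than on the scrambled array with a like S phase mean. These are 1 array a group, picked by their S phase means, and their G2 and mitosis means were less alike (9.95, 10.43 and 10.28). They also set array 2 of the targeting siRNAs against array 1 of scrambled siRNA, and E2F7 itself differed by 0.49 between arrays 1 and 2. The same step was 0.12 and -0.12 for E2F8, 0.17 and 0.73 for E2F5, and -0.002 and -0.43 for RBL1. It was 0.42 and -0.05 for RBL2, -0.17 and -0.10 for E2F3, and 0.03 and 0.04 for E2F4. Limma was also fitted with the S phase mean as an added term, a choice made once the data had been seen. Array number was not in that fit. The S phase mean differed both by array number and by siRNA group, so the fit cannot separate them. In that fit the E2F7 difference was 0.97 (SE 0.14) with VEGF-C siRNA and 0.61 (SE 0.17) with NRP-2 siRNA, and limma's adjusted p was 0.284 and 0.568. In the same fit E2F8 differed by 0.32 (SE 0.29) with VEGF-C siRNA and by 0.26 (SE 0.34) with NRP-2 siRNA. With the G2 and mitosis mean in its place, E2F7 differed by 0.76 (SE 0.25) with VEGF-C siRNA and by 0.73 (SE 0.22) with NRP-2 siRNA, while E2F8 differed by -0.21 (SE 0.23) with VEGF-C siRNA, a change of sign, and by 0.33 (SE 0.21) with NRP-2 siRNA. In the S phase fit E2F5 differed by 0.62 (SE 0.17) with VEGF-C siRNA and 0.28 (SE 0.20) with NRP-2 siRNA. The difference between E2F7 and E2F8 in this respect was not tested.

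**Figure D4:**
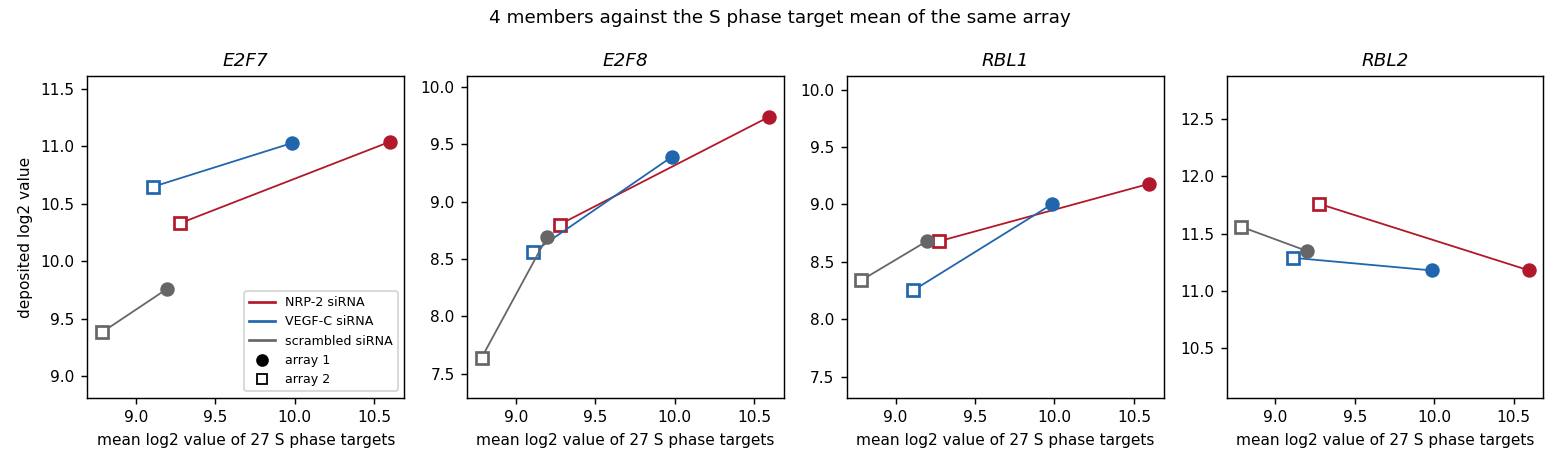
Log2 value of E2F7, E2F8, RBL1 and RBL2 on each array (y axis) against the mean log2 value of 27 S phase targets on the same array (x axis), with the 2 arrays of a group joined by a line, red for NRP-2, blue for VEGF-C and grey for scrambled siRNA. On NRP-2 array 2, VEGF-C array 2 and scrambled array 1, E2F8 lies at similar values (8.80, 8.56 and 8.69). Scrambled array 2 lies well below all others for E2F8, at 7.64. Both scrambled arrays of E2F7 lie below the arrays of the targeting siRNAs.

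The S phase targets themselves stood above 0 in 24 of 27 genes with VEGF-C siRNA and 27 of 27 with NRP-2 siRNA, with median differences of 0.50 and 0.88. At an unadjusted p under 0.05 in limma, 1 was higher and 0 lower in each of these comparisons. It was CDC6, a replication licensing factor, with VEGF-C siRNA (1.70, SE 0.49) and PCNA, the polymerase clamp, with NRP-2 siRNA (0.94, SE 0.34). Both names, like the others given below as higher with an siRNA, were picked once their values were known. With array number added to the siRNA fit, 9 of 27 were higher at that threshold with VEGF-C siRNA, beside 989 of 11131 genes. With NRP-2 siRNA 20 of 27 were higher in that fit, beside 1053 of 11131 genes. By array number, 27 of 27 were above 0 with a median of 0.82, and 20 were higher at that threshold. TYMS, which makes thymidylate, differed by 1.52 (SE 0.17) between arrays 1 and 2, and RRM2, the small subunit of ribonucleotide reductase, by 1.44 (SE 0.18). CDC45, a helicase component, differed by 1.29 (SE 0.18) and TK1, thymidine kinase, by 1.61 (SE 0.24). Limma's adjusted p lay between 0.123 and 0.138 for these 4 genes.

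Among the G2 and mitosis genes, 19 of 19 were above 0 in both comparisons with scrambled siRNA, with medians of 1.30 for VEGF-C and 0.98 for NRP-2 siRNA, and 3 and 0 of them were higher at an unadjusted p under 0.05 in limma. The 3 were AURKB (1.99, SE 0.76), UBE2C (1.59, SE 0.58) and CENPE (1.27, SE 0.44). That fit has no term for array number. With array number added, 19 of 19 were higher with VEGF-C siRNA and 18 of 19 with NRP-2 siRNA. By array number all 19 were higher at that threshold, with a median of 1.16. The proliferation antigen MKI67 differed by 1.53 (SE 0.20), the kinesin KIF11 by 1.22 (SE 0.14), the checkpoint kinase BUB1B by 1.17 (SE 0.14) and the kinetochore protein CENPF by 1.07 (SE 0.16) between arrays 1 and 2.

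The partners of the E2F factors did not share a pattern. TFDP2, a DP protein that dimerises with E2F1 to E2F6, stood at 7.70 and 7.97 under NRP-2 siRNA, 7.28 and 7.14 under VEGF-C siRNA and 8.14 and 8.04 under scrambled siRNA. Its difference with VEGF-C siRNA was -0.88 (SE 0.15, limma's adjusted p = 0.204), and the arrays of the groups did not overlap. It was the 1 of 3 measured genes of its list, with TFDP1 and E2F6, that was lower at an unadjusted p under 0.05. TFDP1 differed by 0.39 (SE 0.25) with NRP-2 siRNA and 0.12 (SE 0.25) with VEGF-C siRNA. E2F6, a repressor that does not bind pocket proteins, differed by 0.28 (SE 0.18) for NRP-2 siRNA and by -0.09 (SE 0.18) for VEGF-C siRNA. TFDP3 did not pass the filter.

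In the MuvB complex, which joins E2F4 and a pocket protein in resting cells and MYBL2 or FOXM1 in dividing cells, 0 of 7 genes were higher in limma at an unadjusted p under 0.05 with either siRNA, and 1, LIN37 (-0.31, SE 0.12), was lower with NRP-2 siRNA. With array number added to the siRNA fit, 3 of 7 were higher with VEGF-C siRNA and 2 of 7 with NRP-2 siRNA, and 0 were lower. By array number 3 of 7 were higher at that threshold, FOXM1 by 1.23 (SE 0.22), MYBL2 by 1.43 (SE 0.33) and LIN9 by 0.36 (SE 0.12). FOXM1 had 9.59 and 8.37 under NRP-2 siRNA, 10.04 and 9.33 under VEGF-C siRNA and 8.87 and 7.10 under scrambled siRNA. Array 1 lay above array 2 in each group, as for E2F8 and 15.7% of all genes. The FOXM1 mean was highest with VEGF-C siRNA, that of E2F8 with NRP-2 siRNA.

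Upstream of the pocket proteins, 10 of 10 G1 cyclins and kinases were measured. In each comparison with scrambled siRNA 1 was higher and 1 lower at an unadjusted p under 0.05 in limma. The higher gene was the RB1 kinase CDK6 with NRP-2 siRNA (1.46, SE 0.47) and its relative CDK4 with VEGF-C siRNA (0.51, SE 0.17). The lower gene was CCND2, a D-type cyclin, at 3.53 and 4.32 under NRP-2 siRNA, 4.83 and 4.88 under VEGF-C siRNA and 5.93 and 5.54 under scrambled siRNA. It differed by -1.81 (SE 0.29, limma's adjusted p = 0.213) with NRP-2 siRNA and by -0.88 (SE 0.29, limma's adjusted p = 0.288) with VEGF-C siRNA, close to the floor. With array number added to the siRNA fit, 3 of 10 were higher and 1 lower with VEGF-C siRNA, and 5 higher and 1 lower with NRP-2 siRNA. By array number 5 of 10 were higher at that threshold, with CCNA2 at 1.33 (SE 0.16), the phosphatase CDC25A at 0.79 (SE 0.14) and CCNE1 at 0.86 (SE 0.23). Of 6 measured CDK inhibitors, 0 passed the unadjusted threshold with VEGF-C siRNA and 1 was lower with NRP-2 siRNA, namely CDKN2A, an inhibitor upstream of RB1 (-0.32, SE 0.11). With array number added to the siRNA fit, 1 of 6 was higher and 0 lower in each comparison with scrambled siRNA. CDKN2D differed by 0.81 (SE 0.12) between arrays 1 and 2, and CDKN1A by 0.68 (SE 0.30). CDKN1C differed by 0.23 (SE 0.11) with NRP-2 siRNA.

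The genes whose 6 values lay closest to those of a member were found by the root mean square difference over the 6 arrays after centring each gene on its own mean. For E2F8, whose own values had a root mean square of 0.66 around their mean, these were MAD2L1 (0.07), CENPO (0.09) and CENPK (0.13), genes of the spindle checkpoint and the centromere. E2F7 ranked 126th by this measure (0.32) and RBL1 301st (0.41). For RBL1 the closest genes were PDE8A (0.08), BICC1 (0.08) and IL1B (0.09), and for RBL2 they were B3GNT9, POLR3GL and NIPSNAP3B (0.06 each). The points share 3 groups and 2 array numbers, and likeness over 6 arrays describes these arrays only.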

How the data were processed

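Values per probe set of PC3 RNA arrays were used as the authors deposited them, on the log2 scale. The submitters' processing notes name Partek and GCRMA, and no version or setting was found in the labels or file headers. GCRMA estimates background from probe sequence, so dim values are compressed. No scanner file or detection call entered the work. Per the labels' protocols, 6 ug of total RNA was labelled.

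Of 54675 probe sets, 41091 had 1 gene in the platform annotation of 2016. Those with a mean of at least log2 4 (19946) were kept, and each of 11131 genes was represented by its brightest probe set. Limma 3.58.1 in R 4.3.3 was fitted to all 6 arrays with the 3 groups (3 residual degrees of freedom, prior of 2.46). Array number was fitted with group as a covariate (2 residual degrees of freedom, prior of 3.18). Probe sets were also fitted as separate features. Tests were two-sided. The procedure was run on simulated data with independent errors, which do not cover deviations shared by arrays of the same number.

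Members and lists were chosen with earlier results of these data known. The members, VEGFC and NRP2 were named whatever their values. From each list the 4 genes with the smallest p over the comparisons were named, and likeness was computed for E2F8, RBL1 and RBL2, with E2F1 left out because it did not pass the filter.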

Additional observations from a re-analysis of the deposited data

Results flagged for a closer look

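In 2 members the difference between array 1 and array 2 had another sign with VEGF-C siRNA than in the other groups. For E2F5 it was 0.15 with NRP-2 siRNA, -0.271 with VEGF-C siRNA and 0.05 with scrambled siRNA. For E2F4 it was -0.04 with NRP-2 siRNA, 0.002 with VEGF-C siRNA and -0.05 with scrambled siRNA, all within 0.05 of 0. Each group had 1 pair of arrays, and these differences between groups were not tested.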

How the results depend on the processing

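The count of 0 genes called at an adjusted p under 0.05 by limma held in the 4 comparisons under the alternatives run, except that without the low-value filter 1 gene was called for VEGF-C against scrambled siRNA and 1 for NRP-2 against VEGF-C siRNA, and that leaving out pairs gave 0 to 374 for array number. With probe sets as features and no filter, 28 of 41091 were called for NRP-2 against VEGF-C siRNA, 12 higher and 16 lower. At an unadjusted p under 0.05, treating every probe set as a feature gave 2768 features for VEGF-C against scrambled siRNA, 2761 for NRP-2 against scrambled siRNA, 3719 for NRP-2 against VEGF-C siRNA and 1880 for array number, by construction of more features. Dropping the group term left 459 genes for array number. A term for the G2 and mitosis mean, added after seeing the data, left 834 for VEGF-C against scrambled siRNA, and the S phase mean left 903 for NRP-2 against scrambled siRNA. Without each array or pair in turn, the genes at that threshold ranged from 666 to 1989 (VEGF-C against scrambled), 729 to 2706 (NRP-2 against scrambled), 1491 to 2396 (NRP-2 against VEGF-C) and 613 to 2038 (array number), the members from 2 to 2, 0 to 3, 0 to 1 and 2 to 5, and their probe sets from 2 to 2, 0 to 4, 0 to 1 and 2 to 4. The highest of each NRP-2 against scrambled range came without NRP-2 array 2. Arrays of the same number shared only a number in the labels, and any comparison of siRNAs has only 2 such pairs. Deviations of same-numbered arrays correlated at 0.58 for NRP-2 and scrambled siRNA, 0.11 for VEGF-C and scrambled siRNA and 0.12 for NRP-2 and VEGF-C siRNA. Fitted as a block (replicate block), array number gave 3 members (E2F7, E2F8 and RBL1) and 3 of their probe sets at the unadjusted threshold for NRP-2 against scrambled siRNA, 3 members (E2F5, E2F7 and E2F8) for VEGF-C against scrambled siRNA and 0 for NRP-2 against VEGF-C siRNA. The counts over all genes under the block were 1909, 1997 and 2269, and 0 genes passed after adjustment. Counts for the gene lists moved more under the block. For NRP-2 against scrambled siRNA, 18 of 19 G2 and mitosis genes (0 without the block), 20 of 27 S phase targets (1 without it), 2 of 7 MuvB genes (0 without it) and 5 of 10 G1 genes (1 without it) were higher at the unadjusted threshold. For VEGF-C against scrambled siRNA these counts were 19 (3 without the block), 9 (1), 3 (0) and 3 (1). For NRP-2 against VEGF-C siRNA, 1 member and 1 member probe set passed the unadjusted threshold with no low-value filter, 1 member with either added mean, and 1 member probe set with the G2 and mitosis mean. Of 32 member differences, 14 kept their sign under all alternatives and 18 turned in at least 1, the largest of them 0.81 (E2F8, VEGF-C against scrambled siRNA). Among the small differences that turned, NRP-2 against scrambled siRNA gave E2F4 0.0140 and RB1 0.0073 with equal medians, E2F4 0.0084 with quantile normalization and RBL2 -0.0855 as the mean of all probe sets. Array number gave E2F4 0.0250 with quantile normalization and E2F5 0.0011 with equal medians. With the S phase mean as a term, VEGF-C against scrambled siRNA gave E2F3 -0.1385, RB1 -0.0044 and RBL1 -0.1877, NRP-2 against scrambled siRNA gave E2F3 -0.0662, E2F4 0.0121 and RBL1 -0.0956, and NRP-2 against VEGF-C siRNA gave E2F8 -0.0516. With the G2 and mitosis mean, VEGF-C against scrambled siRNA gave E2F3 -0.2659, E2F8 -0.2097, RB1 -0.0662, RBL1 -0.3892 and RBL2 0.1051, and NRP-2 against scrambled siRNA gave E2F3 -0.0083 and E2F4 0.0152. Leaving out 1 array at a time, VEGF-C against scrambled siRNA ranged from -0.0943 to 0.1477 for E2F3, -0.0098 to 0.0365 for E2F4, -0.0554 to 0.0864 for RB1 and -0.2601 to 0.4868 for RBL1. NRP-2 against scrambled siRNA ranged from -0.0476 to 0.4777 for E2F3, -0.0348 to 0.0115 for E2F4, -0.0892 to 0.0526 for RB1 and -0.2723 to 0.3065 for RBL2. NRP-2 against VEGF-C siRNA ranged from -0.0743 to 0.451 for E2F3, -0.5115 to 0.1978 for E2F7, -0.1724 to 0.7652 for E2F8, -0.0699 to 0.677 for RBL1 and -0.0558 to 0.5231 for RBL2. Array number ranged from -0.11 to 0.1008 for E2F5. In the same runs E2F7 ranged from 1.08 to 1.46 for VEGF-C and from 0.76 to 1.47 for NRP-2 against scrambled siRNA, and E2F8 from 0.29 to 1.33 for VEGF-C and from 0.58 to 1.63 for NRP-2 against scrambled siRNA and from 0.88 to 0.99 by array number. The causes of these shifts were not tested. Signal near background limits E2F1, E2F2 and E2F4.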
